A study of Mus musculus with 8 samples.

Results

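Among the 20778 cells of the lung grafts, 755 (3.63%) carry the cell type name myeloid cell in the authors' annotation, and all cells with that name were taken as members. They came from 8 mice. The B6→B6 mice, numbered 1 to 5, gave 42, 69, 73, 170 and 21 cells, and the HLA→B6 mice, numbered 1 to 3, gave 175, 173 and 32. In the B6→B6 controls a left lung of a C57BL/6 (B6) mouse was transplanted into a B6 mouse. In the HLA→B6 grafts the recipient was B6 and the donor was a transgenic B6 mouse with the human HLA-A2.1 gene. The labels call the first group non-rejected and the second a model of bronchiolitis obliterans syndrome (BOS), the airway form of chronic lung rejection. All mice were male, none received immunosuppression, and the grafts were taken at 1 month. Cells were captured in droplets and the 3′ ends of their transcripts were counted as unique molecular identifiers (UMIs), each of which stands for 1 captured molecule. A graft holds donor cells and recipient cells, and the labels do not tell them apart.

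Dendritic cells (DCs) take up antigen, present it on MHC class II and start T cell responses, including those against transplants. Conventional type 1 DCs (cDC1s) carry Xcr1 and Clec9a and present antigen to CD8 T cells, and conventional type 2 DCs (cDC2s) carry Cd209a and Mgl2 and mainly instruct CD4 T cells. Plasmacytoid DCs carry Siglech and can release large amounts of type I interferon, and DCs that have matured switch on Ccr7, the receptor that leads them to lymph nodes. Monocytes and alveolar macrophages are separate phagocytes of the lung, and the authors gave each of them a label of its own.

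The members yielded 3066032 UMIs in all. A member had a median of 3400 UMIs and 1389 genes, and the medians of single mice ran from 637 UMIs in B6→B6 replicate 1 to 4700 in B6→B6 replicate 2. Of the 755 cells, 113 (14.97%) carried a barcode that a cell of another mouse also carried, and in 92 of these the other cell was a member as well. This touched 31 of 42 members in B6→B6 replicate 1 and 38 of 69 in B6→B6 replicate 2. These 2 libraries shared 24 member barcodes, and the copies in replicate 1 had a median of 560 UMIs against 6929.5 in replicate 2. HLA→B6 replicate 2 and the first 3 B6→B6 replicates are linked by such barcodes, so several results below were also computed without the shared cells. This was not done for the groups in the cDC1-like cells. Nor was it done for the tests of another group effect in monocytes or alveolar macrophages. Scrublet marked 3 members as doublets.

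The question asked first was what these cells are beside the cells labelled monocyte (1968) and alveolar macrophage (2494). The members were low in genes of monocytes and macrophages and high in DC genes, and they also held T cell genes and genes of cell division. Ccr7 had a mean of 368 ± 238 (SD, n = 8 mice) counts per 1000000 UMIs (CPM) in the members, 1.35 in monocytes and 3.54 in alveolar macrophages. Lyz2, the lysozyme that monocytes and macrophages carry at high level, stood at 834 CPM in the members, 26384 in monocytes and 26050 in alveolar macrophages. Both contrasts had the same direction in 8 of 8 mice. Labels were drawn by the authors from these same counts, so these comparisons describe the label and no test was made of them.

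Per mouse, the members' Ccr7 level was 470, 149, 287, 136 and 178 CPM in the B6→B6 mice and 471, 848 and 404 CPM in the HLA→B6 mice. The lowest of these mice was above the level of both other labels in any mouse. Of the genes with at least 100 CPM in the members, the 15 with the largest ratio to the higher of both other labels fell into few kinds. Ccr7 (median log2 ratio 4.64), the actin-bundling protein Fscn1 (4.38) and the chemokine gene Ccl17 (3.54) mark mature DCs, and H2-DMb2 (3.99) and H2-Oa (3.65) encode parts of the machinery that loads MHC II. Siglech (3.63) marks plasmacytoid DCs and Cd209a (3.56) marks cDC2s. Trbc2 (3.77) and Cd3g (3.37) encode parts of the T cell receptor, Klrd1 (4.41) a lectin-like receptor of killer cells, Ccl5 (3.62) a chemokine that recruits T cells, and Ccnd1 (3.18) a cyclin of the G1 phase. Cd7 (3.78), Ptprcap (3.51) and Ly6d (3.38) complete the 15. All but Trbc2 were above both labels in 8 of 8 mice, and Trbc2 in 7.

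Among the same genes, the 10 with the lowest ratio included genes of phagocytes and of red blood cells. Apoe, an apolipoprotein that macrophages secrete, had a median log2 ratio of -7.48 to the higher label. The hemoglobin gene Hbb-bs had -6.00, Lyz2 had -5.72, the macrophage chemokine Ccl6 had -5.51 and the lysosomal protease gene Ctsd had -5.42. Gngt2 (-3.54), Cd44 (-3.40), Ftl1-ps1 (-3.17), the ferritin gene Fth1 (-3.13) and Cstb (-3.12) followed. Ftl1-ps1 is named as a pseudogene of ferritin light chain, so its reads can come from the parent gene. In all, 50 genes had a median ratio of at least 4-fold over both other labels.

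Marker lists gave the same picture as sums per list. The 10 genes of CCR7-positive mature DCs summed to a median over mice of 1707 CPM in the members, 62.5 in monocytes and 78.9 in alveolar macrophages, and the members were above both in 8 of 8 mice. The 12 measured genes of the MHC II pathway summed to 68433 CPM against 17595 and 24245, above both in 7 of 8 mice. The 5 genes shared by conventional DCs summed to 35706 CPM against 9132 and 9904, also above both in 7. The cDC1 list was at 2061 CPM in the members, the cDC2 list at 1014 CPM and the plasmacytoid DC list at 867 CPM, all above the medians of both other labels. The classical monocyte list was at 1266 CPM in the members against 7072 in monocytes, the patrolling monocyte list at 341 against 2956, and the alveolar macrophage list at 98.7 against 13029 in alveolar macrophages. Of the alveolar macrophage markers, Siglecf and Ear1 had 0 UMIs in the members of every mouse. The T cell list was at 1147 CPM in the members and at 29.8 and 49.6 in the other labels. The authors corrected counts for free RNA with SoupX and gave it MHC II genes, Cd74, Apoe, Lyz2, hemoglobin and immunoglobulin genes as markers of free RNA, among others. Whether the deposited counts are those before or after that correction is stated nowhere in what was read, so levels of these genes are less certain than those of others.

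**Figure D1:**
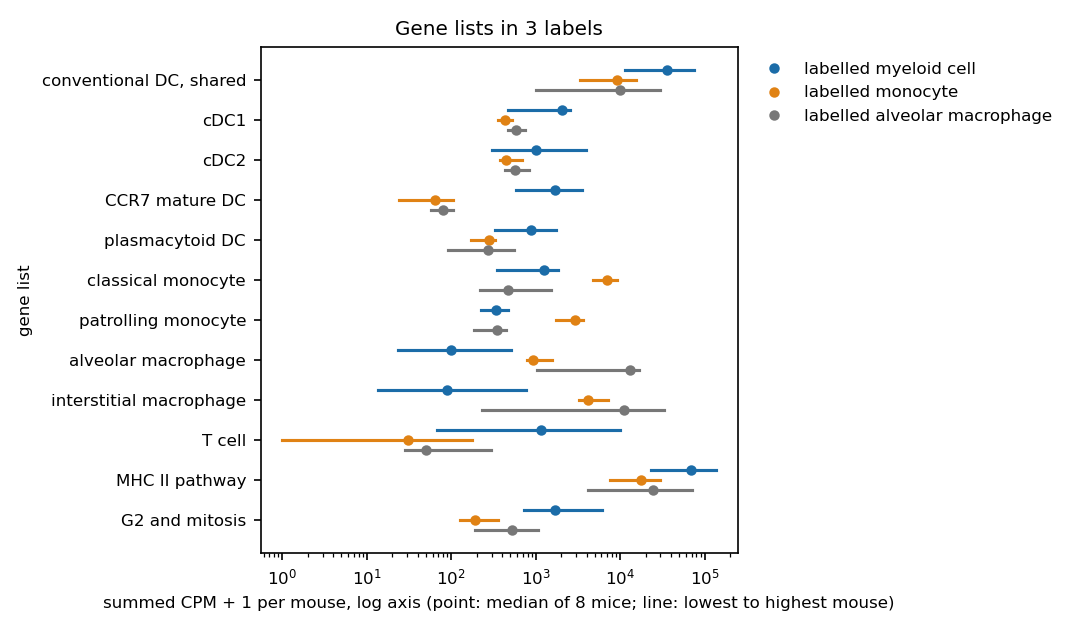
Summed level of 12 gene lists in the cells labelled myeloid cell, monocyte and alveolar macrophage, in CPM plus 1 on a log axis. Each point is the median of 8 mice and each line runs from the lowest to the highest mouse. The CCR7 mature DC list does not overlap between the cells labelled myeloid cell and the other labels, while the alveolar macrophage list is lowest in the cells labelled myeloid cell.

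To describe the mixture, the 755 cells were clustered again without regard to the groups, which gave 8 subclusters. Subclusters were named only from marker lists, and their leading genes are a description, since the same counts drew the clusters. Subclusters 0, 4, 5 and 6 had DC markers and held 362 members (47.9%). Subcluster 2 (49 cells) was plasmacytoid DC-like, subclusters 3 (57 cells) and 7 (108 cells) were T cell-like, and subcluster 1 (179 cells) was left unnamed. No subcluster was named monocyte-like or macrophage-like. In counts summed over cells, the classical monocyte list stood at 8171 CPM in subcluster 2 and 1644 CPM in subcluster 0. It stood at 8129 CPM in the cells labelled monocyte. The patrolling monocyte list stood at 226 and 366 CPM in these subclusters and at 2291 CPM in the cells labelled monocyte.

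Subcluster 0 (157 cells, median 5529 UMIs) was cDC2-like. Its leading genes were Mgl2, a lectin of cDC2s, at 29.0 times the level of the other members, and the lectin Cd209a at 25.3 times, followed by Wfdc17, Ifitm3, Ccl9, Ms4a6c, Ms4a4c, Clec4b1, Cd300a and Ifitm6. Cd209a was seen in 66.2% of its cells. It was seen in 0.441% of alveolar macrophages, which had a median of 2791.5 UMIs. With every cell thinned to 500 UMIs, these shares were 37.6% of 149 cells and 0.184% of 2334. Subcluster 5 (86 cells, 7084.5 UMIs) was cDC1-like. Its leading gene was the chemokine receptor gene Xcr1 (288 CPM, 19.98-fold), and Rab7b, Naaa, Ppt1, Sept3, Cadm1, Ifi205, Gcsam, the double-stranded RNA sensor gene Tlr3 and the lectin gene Cd207 followed. Clec9a was seen in 54.7% of its cells and in 0.102% of the cells labelled monocyte, which had a median of 2155.5 UMIs.

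Subclusters 4 (70 cells, 3502.5 UMIs) and 6 (49 cells, 756 UMIs) were both CCR7 mature DC-like. Ccr7 led subcluster 4 at 60.3 times the other members and was seen in 95.7% of its cells, against 0.559% of the cells labelled monocyte, with Apol7c, Fscn1, Cacnb3, Anxa3, the cytokine signal inhibitor gene Socs2, Cd63, Zmynd15, Nudt17 and Tspan3 behind it. The list for subcluster 6 was Insl6, Serpinb6b, Ccl22, Fscn1, Epsti1, Ccl5, Cd63, Nudt17, Zmynd15 and Ube2l6. Fscn1 stood at 4624 CPM in subcluster 4 and 5135 CPM in subcluster 6. Ccl5 stood at 9518 and 17774 CPM. Il12b, which encodes a subunit of interleukin 12, stood at 255 and 221 CPM and was at 8.65 CPM in subcluster 0. Subcluster 6 was the shallower of both, and 0 of its cells shared a barcode with another mouse. Its shallow cells kept DC markers among their leading genes and were therefore named.

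Subcluster 2 (median 3690 UMIs) was led by Cox6a2 (142-fold), Siglech (111-fold) and the kallikrein gene Klk1 (83.0-fold). Siglech was seen in 98.0% of its cells, against 0.0508% of the cells labelled monocyte, which had a median of 2155.5 UMIs. Subcluster 3 (4966 UMIs) was led by Ms4a4b, the granule gene Nkg7, the T cell receptor constant gene Trac, Il2rb and Pdcd1, which encodes the inhibitory receptor PD-1. Cxcr6, Gimap3, Izumo1r, Ctla4 and Gimap4 completed its leading genes. Subcluster 1 had a median of 623 UMIs and 57 of its 179 cells shared a barcode with another mouse, and its leading genes (Hsp90b1, Tubb4b, Rrm2, Ube2c and others) rose at most 3.57-fold over the other members. At a finer resolution it split into 76 cells led by Aif1, 90 cells led by the cyclin-dependent kinase gene Cdk1 and 12 cells led by the immunoglobulin gene Ighg3. Those 12 cells had a median of 12239.5 UMIs, and 9 of them came from HLA→B6 replicate 1.

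**Figure D2:**
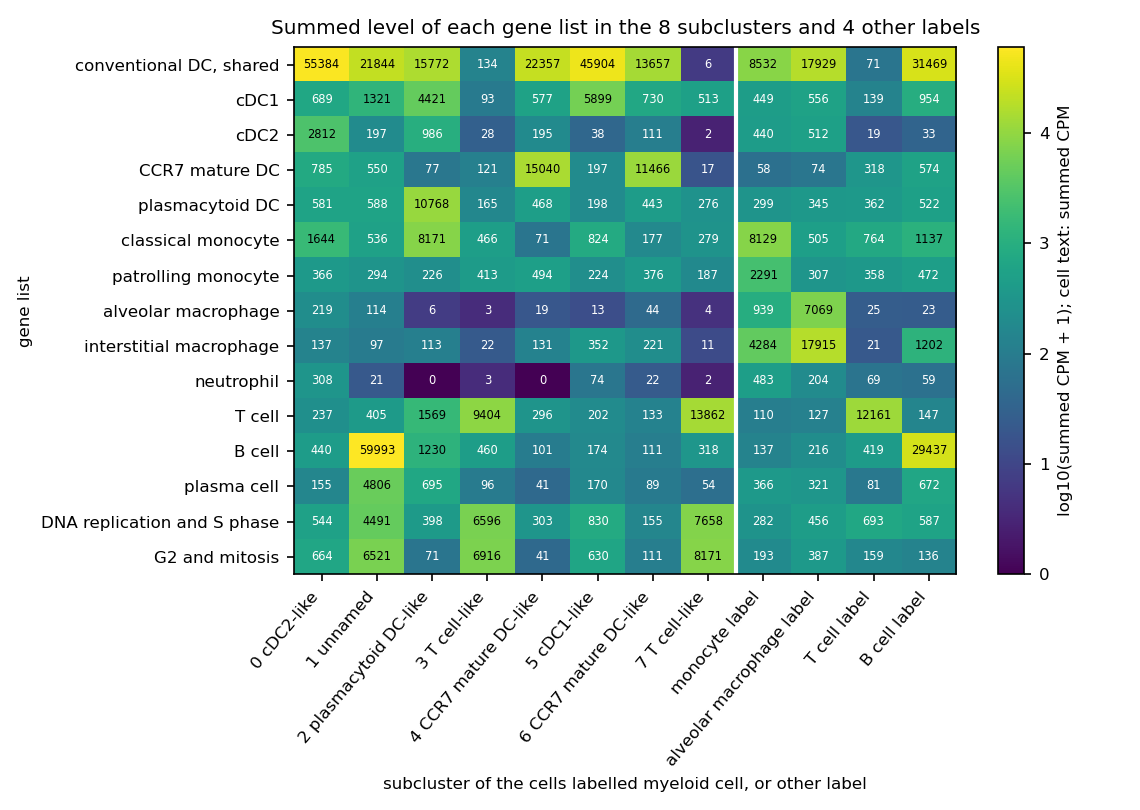
Summed level of 15 gene lists in the 8 subclusters of the cells labelled myeloid cell and in 4 other labels, as CPM in the tiles and as log10 of CPM plus 1 in the color. Each list of DC markers peaks in the subcluster that bears its name, and the B cell list in subcluster 1 (59993 CPM) is high through a few cells.

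Subcluster 7 (median 3689.5 UMIs) belonged to 1 mouse. Of its 108 cells, 107 came from B6→B6 replicate 4 and 1 from HLA→B6 replicate 3, so it made up 62.9% of the members of B6→B6 replicate 4. Its leading gene was Dntt, which encodes the enzyme that adds bases where antigen receptor genes are joined, at 844 CPM against 9.90 in the other members. Arpp21, Dgkeos, Endou, the T cell transcription factor gene Tcf7, Satb1, Aqp11, Trbc2, Rag1 and Trbc1 followed. Dntt was seen in 84.3% of the cells and Rag1, which encodes the recombinase that cuts antigen receptor genes, in 44.4%. In the cells labelled monocyte Dntt was seen in 0.0508% and Rag1 in 0 of 1968. The same genes were found in B6→B6 replicate 4 under other labels. Of its 1470 cells labelled T cell, 489 (33.3%) had a Dntt UMI and 446 (30.3%) a Rag1 UMI. This mouse held 630 of the 651 cells with a Dntt UMI in the whole series and 525 of the 527 cells with a Rag1 UMI. Results over all members are therefore given below with and without subcluster 7.

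**Figure D3:**
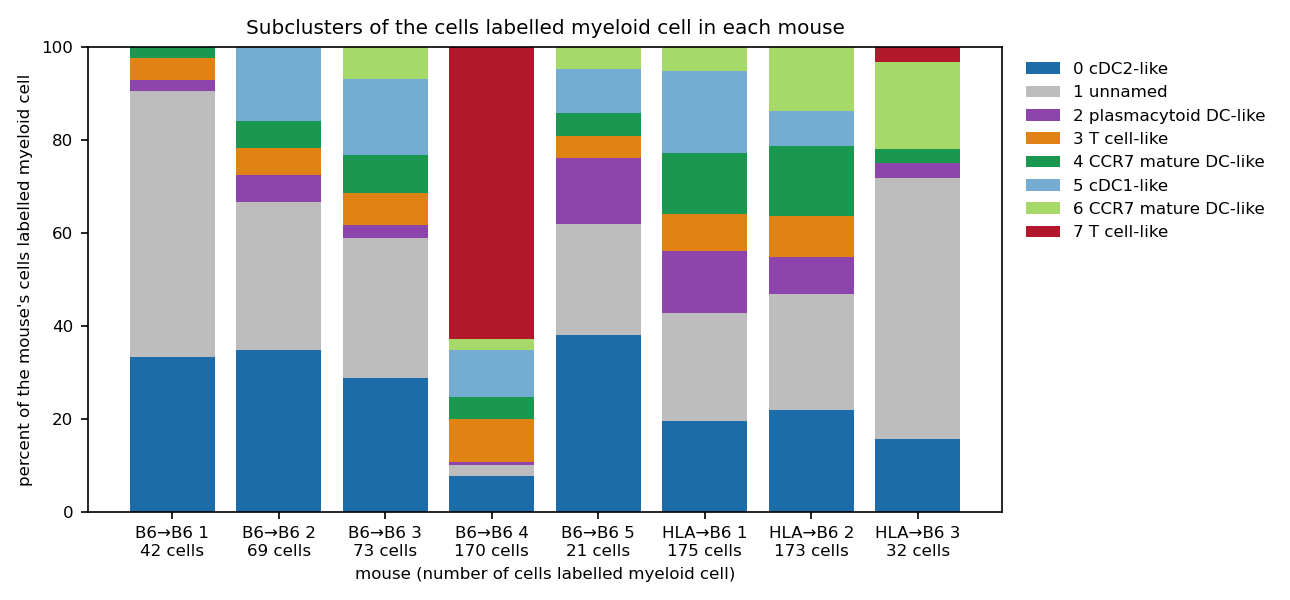
Share of each subcluster among the cells labelled myeloid cell in each mouse, in percent, with the number of cells under each bar. Subcluster 7 makes up 62.9% of B6→B6 replicate 4, and subclusters 4 and 6 together make up at least 18.3% in each HLA→B6 mouse.

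Cell division was a further feature of the members. A cell was counted as dividing with at least 5 UMIs of the list of 30 G2 and mitosis genes, among them Mki67 and Top2a. By that count 234 of 755 members (31.0%) were dividing, against 3.09% of alveolar macrophages, 0.813% of monocytes and 0.276% of cells labelled T cell. The members made up 3.63% of all cells and 62.6% of the 374 dividing cells of the series. Dividing cells lay mostly in the T cell-like subclusters, with 96.5% of subcluster 3 and 92.6% of subcluster 7, while subclusters 2, 4 and 6 had 0 of 49, 0 of 70 and 0 of 49. The unnamed subcluster 1 had 33.5% (60 of 179 cells), the cDC1-like subcluster 14.0% and the cDC2-like subcluster 4.46%. Between mice the share ran from 11.9% to 28.1%, apart from B6→B6 replicate 4, which had 68.2% with subcluster 7 and 27.0% without it. The count depends on depth, since a shallow cell reaches 5 UMIs less often, and 51 members had between 4 and 6 UMIs of the list.

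**Figure D4:**
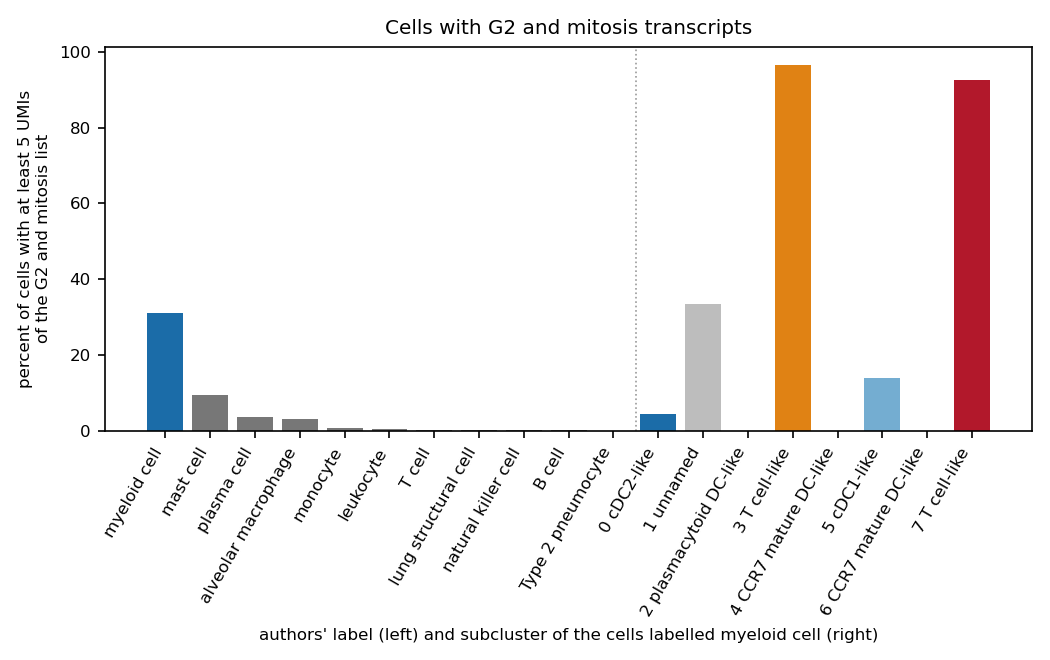
Percent of cells with at least 5 UMIs of the G2 and mitosis list under each of the authors' labels (left) and in each subcluster of the cells labelled myeloid cell (right). The cells labelled myeloid cell reach 31.0%, and the T cell-like subclusters 3 and 7 reach 96.5% and 92.6%.

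The next question was whether the 2 groups of grafts differed in these cells. Members made up 4.44, 5.11, 2.999, 4.15 and 2.42% of all cells in the B6→B6 mice and 2.67, 5.26 and 2.57% in the HLA→B6 mice. The groups overlapped, and the means of 3.82% ± 1.09 (SD, n = 5) and 3.50% ± 1.52 (SD, n = 3) gave p = 0.804 by an exact two-sided permutation test over mice. The sign of the difference of -0.32 percentage points was not stable: it was 0.755 without cells that share a barcode, 0.206 as the mean within the linked and unlinked libraries and 0.173 without subcluster 7.

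Of the 8 subclusters, the CCR7 mature DC-like subclusters 6 and 4 had the smallest p between the groups. Subcluster 6 made up 0, 0, 6.85, 2.35 and 4.76% of the members in the B6→B6 mice and 5.14, 13.9 and 18.8% in the HLA→B6 mice. The means were 2.79% ± 3.01 and 12.6% ± 6.89, with p = 0.0357 by the exact permutation test and 0.286 after Benjamini-Hochberg adjustment over the 8 subclusters. The ranges overlapped, since B6→B6 replicate 3 lay above HLA→B6 replicate 1, and the difference did not pass the adjusted threshold. For subcluster 4 the means were 5.17% ± 2.11 and 10.4% ± 6.40 (exact p = 0.143, adjusted 0.571). Subclusters 4 and 6 summed to 2.38, 5.80, 15.1, 7.06 and 9.52% in the B6→B6 mice and 18.3, 28.9 and 21.9% in the HLA→B6 mice, which did not overlap. Without subcluster 7 in the denominator, B6→B6 replicate 4 rose to 19.0%, above HLA→B6 replicate 1. With a coarser clustering the same kind of cells formed 1 cluster, at 7.14% ± 3.34 and 21.4% ± 4.999. There the exact p was 0.0179, the smallest that 56 splits of 8 mice can give, and 0.125 after adjustment. For the other subclusters the p was at least 0.232. The share of the cDC2-like subcluster is not read as a difference, since its leading genes Mgl2 and Clec4b1 themselves differed between the groups.

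Over all members, edgeR's quasi-likelihood test on counts summed per mouse found 0 of 4395 genes past an adjusted p of 0.05 (0% called), with 215 genes at an unadjusted p under 0.05, of which 148 were higher in HLA→B6 grafts. DESeq2 called 25. The genes of smallest p are given as values. Epsti1, an interferon-induced gene, had 35.2, 120, 105, 103 and 82.1 CPM in the B6→B6 mice and 339, 697 and 1950 CPM in the HLA→B6 mice (log2 difference 3.27, SE 0.48, adjusted p = 0.0700). Its groups did not overlap, and it is also a leading gene of subcluster 6. Cd200 (2.99), Cdh5 (3.87), Apoe (4.77) and Anxa3 (2.30) came next, each with an adjusted p of 0.0773. Cdh5 is a marker of endothelial cells, and the sum of the 6 endothelial markers ran from 9.72 CPM upward in the members and reached 1110 CPM in HLA→B6 replicate 3. Its part in the result was not tested. On the lower side stood Mgl2 (-3.89, adjusted p = 0.1805), Lmo1 (-2.60), the transferrin gene Trf (-2.99), Hadh (-1.73) and Ramp1 (-1.16).

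By list, all 11 tested MHC I pathway genes were higher in HLA→B6 grafts (median log2 difference 0.92), beside a median of -0.04 over all genes. Of 11 tested MHC II genes and 12 tested immediate early genes 0 were higher, with medians of -0.53 and -1.03. None of these genes was called.

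The count of 0 was not stable, and what sets it was not tested. With subcluster 7 kept and linked libraries as a block, edgeR's test called 15 genes. Without subcluster 7 it called 16, and without B6→B6 replicate 4 it called 27. Restricted to the DC-like subclusters 0, 4, 5 and 6, a choice made after the data were seen, it called 35 of 3203 genes (1.09%), 30 higher (0.937%) and 5 lower (0.156%). The 10 largest rises were in Apoe (4.23), Epsti1 (3.37), Gbp2 (3.15), Gnb4, Insl6, AW112010, Il15ra, Serpinb6b, Zmynd15 and Glipr2. The falls were in Mgl2 (-3.59), Egr1 (-3.00), Trf (-2.88), Lmo1 (-2.84) and Clec4b1 (-2.09). Epsti1, Insl6, Serpinb6b and Zmynd15 are leading genes of subcluster 6, and Mgl2 and Clec4b1 of subcluster 0. The part of the mix of subclusters in these calls was not tested. Of the CCR7 mature DC list, 5 of 10 tested genes rose (Nudt17, Fscn1, Relb, Il4i1 and Socs2), in cells where the 2 mature subclusters made up a larger share of the HLA→B6 sums. With subclusters 0 and 5 alone, 3 of 3283 genes were called (0.0914%), namely Apoe, Isg15 and Cxcl9. The interstitial macrophage list, to which Apoe belongs, summed to between 0 and 154 CPM in the DC-like members of the B6→B6 mice and to 469, 175 and 792 CPM in those of the HLA→B6 mice. Apoe itself gave 269, 85.2 and 628 CPM of the HLA→B6 sums and at most 45.7 CPM in a B6→B6 mouse. The part of this list in the result was not tested.

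Within the cDC2-like subcluster the groups were compared among cells that clustered together. These were not free of other markers, and the classical monocyte list ran from 286 to 2220 CPM in its B6→B6 mice and from 1618 to 2061 CPM in its HLA→B6 mice. Mice with at least 10 of its cells were B6→B6 replicates 1 to 4 (14, 24, 21 and 13 cells) and HLA→B6 replicates 1 and 2 (34 and 38 cells). Of 2097 genes tested, 25 (1.19%) were called, 18 higher (0.858%) and 7 lower (0.334%) in HLA→B6 grafts, and the median over all tested genes was -0.02 on the log2 scale. Genes that interferon γ (IFN-γ) induces were among the rises, and lectin genes of cDC2s and immediate early genes were among the falls. B6→B6 replicate 5 (8 cells) and HLA→B6 replicate 3 (5 cells) were left out of the test and are given as values.

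Gbp2, an IFN-induced GTPase that acts against intracellular microbes, had 0, 6.61, 18.6 and 0 CPM in the 4 B6→B6 mice of the test and 229 and 662 CPM in its 2 HLA→B6 mice (log2 difference 5.63, SE 0.61, adjusted p = 0.000104). Those B6→B6 values rest on 3 UMIs in all, so the ratio of the summed counts is 59.4 with a 95% counting interval of 19.98 to 291. In the mice left out it was 0 CPM in B6→B6 replicate 5 and 86.5 in HLA→B6 replicate 3. The groups did not overlap, with or without those mice.

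Cxcl9, a chemokine that draws activated T cells, had 0, 0, 27.9 and 0 CPM in the 4 B6→B6 mice and 100 and 683 CPM in the 2 HLA→B6 mice (log2 difference 5.44, SE 0.87, adjusted p = 0.00807). It also rests on 3 UMIs in the B6→B6 mice, all of them in replicate 3, and the ratio of counts was 52.8 with an interval of 17.7 to 259. It had 0 CPM in HLA→B6 replicate 3, so the direction was not seen in the smallest library. AW112010, a gene induced in activated immune cells, had 0, 13.2, 55.7 and 13.6 CPM against 512 and 472 (4.30, SE 0.44, adjusted p = 7.59e-05). AW112010 stayed called in 11 of 11 alternatives and Gbp2 in 10 of the 10 in which it was tested, while Cxcl9 stayed called in 7 of 10, with a log2 difference between 3.49 and 8.604 and an adjusted p of up to 0.986.

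Isg15, a ubiquitin-like protein that type I interferon induces, had 16.6, 26.5, 74.3 and 95.3 CPM against 241 and 353 CPM (2.42, SE 0.43, adjusted p = 0.00807), and 0 CPM in HLA→B6 replicate 3. The other large rises were in Ifit3 (3.99), Ly6c2 (3.56), mt-Cytb (3.15), Ly6i (3.03), Rgs1 (2.77) and Serpina3g (2.57). Ifit3 is an antiviral gene, Ly6c2 and Ly6i belong to the Ly6 family of surface proteins with close paralogs, and Rgs1 dampens chemokine receptor signals. Ly6c2 is also a member of the classical monocyte list, whose sums in these cells are given above. Calls were less stable here: Ifit3 kept its call in 5 of 7 alternatives, Ly6c2 in 4 of 7, mt-Cytb in 6 of 11 and Serpina3g in 4 of 11, while Isg15 kept it in 8 of 10. Ly6c2 stood at 180 CPM in B6→B6 replicate 5, within the range of the HLA→B6 mice. Both Ifit3 and Ly6c2 had 0 CPM in HLA→B6 replicate 3.

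By list, 5 of the 18 IFN-γ response genes passed the filter on low counts, and Gbp2 and Cxcl9 were among those that rose. Of the 16 type I interferon genes, 8 passed the filter and 2 rose (Isg15 and Ifit3). Gbp2, Cxcl9 and Ifit3 had at most 3 UMIs in the 4 B6→B6 mice and passed the filter through the HLA→B6 mice, so no direction is read from the tested members of these 2 lists as a whole. Of the 12 MHC I pathway genes, 11 were tested, all 11 were higher and 3 passed the test, which were the peptide transporter gene Tap1 (1.55), the immunoproteasome gene Psmb8 (1.03) and the proteasome activator gene Psme2 (1.35), with a median of 0.70. Of 11 tested MHC II pathway genes 0 were called, with a median of -0.41 and 3 of 11 higher in HLA→B6 grafts. The counts stand beside a median of -0.02 and a share of 0.858% called higher over all genes.

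mt-Cytb, a gene of the mitochondrial genome, had 0, 384, 27.9 and 0 CPM in the B6→B6 mice and 759 and 1736 CPM in the HLA→B6 mice. In the cells labelled monocyte it had 0, 153 and 39.1 CPM in B6→B6 replicates 1 to 3 and between 304 and 1081 CPM in the other 5 mice. B6→B6 replicate 4, at 0 CPM in its cDC2-like cells, had 614 CPM in its monocytes. In alveolar macrophages the gene ran from 570 to 1239 CPM over all 8 mice. B6→B6 replicate 5 had 797 CPM in its cDC2-like cells, within the HLA→B6 range. What sets this pattern was not tested.

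Lectin, chemokine and transferrin genes made up part of the falls. Mgl2 had 1894, 926, 427 and 1335 CPM in the B6→B6 mice and 129 and 174 CPM in the HLA→B6 mice (-3.01, SE 0.51, adjusted p = 0.00807). In the mice left out it had 1671 CPM in B6→B6 replicate 5 and 0 in HLA→B6 replicate 3, so that over all 8 mice the groups did not overlap. Clec4b1, another lectin gene, fell by 1.78 on the log2 scale and Ccl17, a chemokine gene of DCs that draws T helper cells, by 2.77. Trf had 1080, 542, 139 and 776 CPM against 47.1 and 43.4 CPM (-3.86, SE 0.67, adjusted p = 0.00807). Mgl2 and Trf kept their calls in 10 of 11 alternatives, and Ccl17 and Clec4b1 in 7 of 11. Mgl2 and Clec4b1 are leading genes of the subcluster, so their level and the placement of a cell in it are not independent.

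The immediate early genes switch on within minutes of a stimulus. Fos had 2376, 1726, 1588 and 1607 CPM in the B6→B6 mice and 718 and 515 CPM in the HLA→B6 mice (-1.66, SE 0.27, adjusted p = 0.00807), without overlap. Of the mice left out of the test, B6→B6 replicate 5 stood at 77.1 CPM, below both of these HLA→B6 mice. HLA→B6 replicate 3 stood at 1124 CPM, between the tested mice of the groups. Egr1 (-3.08) and Atf3 (-2.77) fell as well, which made 3 of 11 tested genes of the immediate early and stress list, with a median of -1.14. In HLA→B6 replicate 3, left out of the test, Egr1 stood at 173 CPM and Atf3 at 216 CPM, within the ranges of the 4 B6→B6 mice (121 to 382 and 111 to 340 CPM). B6→B6 replicate 5 had 0 CPM of Egr1 and 77.1 CPM of Atf3. The calls held in 9 of 11 alternatives for Fos and in 8 of 11 for Egr1 and for Atf3. Fos also fell in the cells labelled monocyte (-1.53, adjusted p = 0.00715 by edgeR), and in alveolar macrophages its difference was -0.67 (adjusted p = 0.146).

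**Figure D5:**
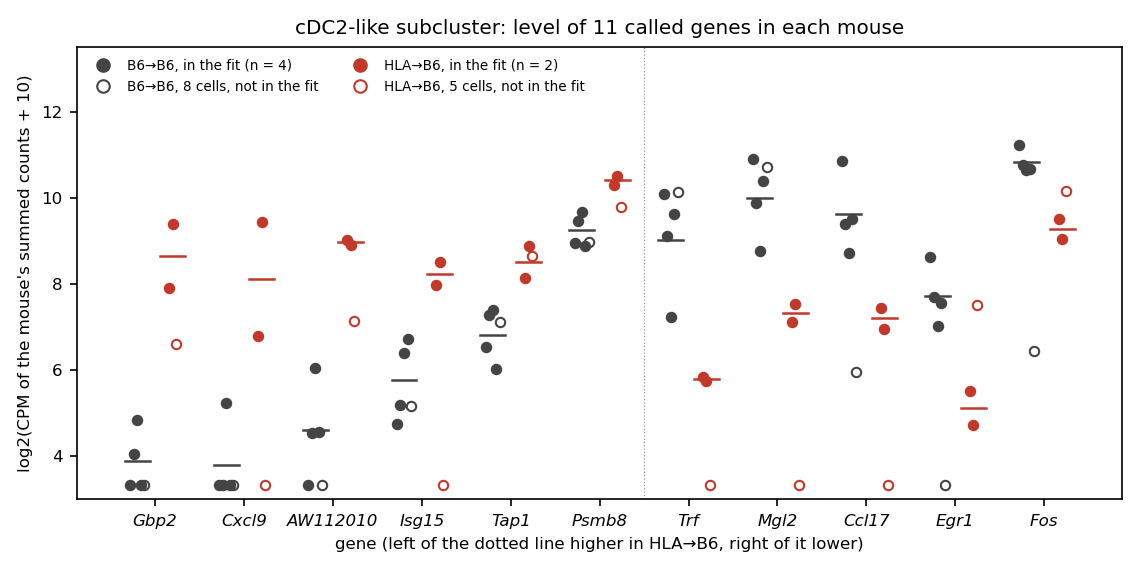
Level of 11 genes called in the cDC2-like subcluster in each mouse, as log2 of CPM plus 10. Filled points are the 4 B6→B6 and 2 HLA→B6 mice in the test, bars are their means, and open points are the mice with 8 and 5 cells that were left out. The 11 genes were chosen by their calls in this same test, so the lack of overlap of their filled points adds no support. Open points of Cxcl9, Isg15 and Egr1 (HLA→B6 replicate 3) and of Ccl17, Egr1 and Fos (B6→B6 replicate 5) lie on the side of the other group.

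Markers of other cell types stood out in 1 of these libraries. In the cDC2-like cells of HLA→B6 replicate 1 the 5 red blood cell markers summed to 7232 CPM and the 8 neutrophil markers to 1448 CPM, while the other 7 mice had 0 CPM of the first and at most 10.8 CPM of the second. The T cell list ran from 0 to 449 CPM in the B6→B6 mice and was at 547 and 293 CPM in HLA→B6 replicates 1 and 2. The interstitial macrophage list stood at 70.6 and 206 CPM in these HLA→B6 mice and between 9.29 and 327 CPM in the 4 B6→B6 mice of the test. The part of these markers in the result was not tested. Without HLA→B6 replicate 1 the test called 55 genes and without B6→B6 replicate 2 it called 6. Without the cells that share a barcode, 3 B6→B6 and 2 HLA→B6 mice were left in the test. There the test called 14 genes, of which 13 were among the 25. With 5 cells per mouse as the minimum, which brought in all 8 mice, it called 8, all of them among the 25.

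The upstream sequences of 3 of the rising genes are shown, to set the letters of their promoters beside their values. Each is the 250 bases before the annotated start in GRCm38.p6, from RefSeq, on the strand of the gene. Capitals mark matches to GAAANNGAA, a form of the element that interferon regulatory factors bind, on either strand. Cxcl9 lies at chr5:92328080-92328329 (minus strand), Gbp2 at chr3:142620413-142620662 (plus strand) and Isg15 at chr4:156200819-156201068 (minus strand).
Cxcl9: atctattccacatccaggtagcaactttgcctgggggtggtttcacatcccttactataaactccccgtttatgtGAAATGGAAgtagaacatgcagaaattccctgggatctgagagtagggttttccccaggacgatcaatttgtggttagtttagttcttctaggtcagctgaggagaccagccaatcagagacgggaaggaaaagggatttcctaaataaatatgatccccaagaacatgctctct
Gbp2: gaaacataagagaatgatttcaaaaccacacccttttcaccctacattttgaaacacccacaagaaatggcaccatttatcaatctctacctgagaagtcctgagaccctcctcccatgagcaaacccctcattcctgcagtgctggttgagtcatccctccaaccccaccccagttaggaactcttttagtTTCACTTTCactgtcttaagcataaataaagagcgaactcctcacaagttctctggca
Isg15: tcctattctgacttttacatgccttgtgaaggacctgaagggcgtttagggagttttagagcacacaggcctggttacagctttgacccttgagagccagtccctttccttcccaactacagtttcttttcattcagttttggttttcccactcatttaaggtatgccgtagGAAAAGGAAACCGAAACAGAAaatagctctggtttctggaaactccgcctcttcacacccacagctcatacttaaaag
The match in Cxcl9 begins 175 bases before the start, that in Gbp2 58 bases before it, and the 3 overlapping matches in Isg15 begin 78, 72 and 66 bases before it. This motif was present in 7.13% of 32851 such mouse upstream stretches of 250 bases and in 9.04% of those of 1660 tested genes that had a sequence. Of the 18 rising genes 12 had a sequence, and 4 of them held the motif (Cxcl9, Gbp2, Ifit3 and Isg15). Of the 7 falling genes 5 had a sequence, and 1 of them held it (Clec4b1). Cxcl9, Gbp2 and Ifit3 passed the filter through the HLA→B6 mice, so no enrichment is read from these counts. A second motif searched, TTCNNNGAA, was in 2 of the 12 rising genes, 1 of the 5 falling genes and 7.11% of the tested genes. It had no match in the 3 sequences shown. A match describes letters only and is not a measured binding site.

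For the cDC1-like subcluster, B6→B6 replicates 2 to 4 were set against HLA→B6 replicates 1 and 2. It gave 1 call in 1430 genes (0.0699%). Fos had 1772, 1407 and 1242 CPM in the B6→B6 mice and 445 and 331 CPM in the HLA→B6 mice (-1.93, SE 0.24, adjusted p = 0.0127). B6→B6 replicate 5, with 2 cells, stood at 399 CPM. Jun, the partner of Fos in the AP-1 factor, had 166, 102 and 275 CPM in the B6→B6 mice and 0 UMIs in both HLA→B6 mice. Its adjusted p of 0.0503 by edgeR missed the threshold. Over all members Jun stood at 1.28, 174 and 269 CPM in HLA→B6 replicates 1 to 3. In the B6→B6 mice it ran from 107 to 623 CPM. The IFN-γ response list had 3 tested genes and 0 called, and the MHC I list 11 tested genes with a median of 0.16 and 0 called. Whether the cDC1-like and cDC2-like cells differ in their response was not tested. In the unnamed subcluster 1, 0 of 349 genes were called by edgeR (0%), 55 had an unadjusted p under 0.05 and DESeq2 called 13.

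The last question was whether the difference between the groups was another one in the members than in monocytes or alveolar macrophages of the same mice. Against monocytes, the interaction of label and group was called for 0 of 5385 genes (0%) by edgeR's quasi-likelihood test, with 240 at an unadjusted p under 0.05 and 1 gene by DESeq2. The smallest p values were those of Epsti1 (difference of differences 2.92, adjusted p = 0.111), which had 3.27 in the members and -0.05 in monocytes, and of Apoe (4.27, adjusted p = 0.314). Against alveolar macrophages it was called for 14 of 6828 genes (0.205%), 7 higher (0.103%) and 7 lower (0.103%). Of the 14, 10 were called in alveolar macrophages by themselves and 0 in the members by themselves. Serpinb1a, a protease inhibitor of phagocytes, changed by -3.79 in alveolar macrophages and by 2.48 (adjusted p = 0.588) in the members, and the difference was 6.20 (adjusted p = 0.0149). Lyz2 rose by 1.503 in alveolar macrophages and was at -1.33 (adjusted p = 0.848) in the members, with a difference of -2.61. Slamf7, a surface receptor of activated leukocytes, rose by 3.49 in alveolar macrophages and was at -0.40 in the members. Cd200, which encodes a ligand that restrains macrophages, is an exception, with 2.99 in the members and -0.18 (adjusted p = 0.780) in alveolar macrophages. Without subcluster 7 the same test called 159 genes, and with the DC-like subclusters alone it called 139.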

How the data were processed

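The deposited file holds UMI counts, which the authors made with Cell Ranger (mm10) from 10x 3′ libraries, without barcodes under 200 UMIs and genes in fewer than 3 cells. Its 17921 genes and 20778 cells were used with the authors' cell type and mouse columns, and 0 columns went unused. The members and gene lists were chosen with earlier results of these data known.

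Counts were summed per mouse, which was the replicate. Groups were compared where a mouse had at least 10 cells, with edgeR 4.0.16 (filterByExpr, TMM, quasi-likelihood test, Benjamini-Hochberg adjusted p under 0.05) in R 4.3.3. DESeq2 1.42.0 was an alternative. Fits were tested on simulated data. Shares were compared by exact permutation over the 56 splits of 8 mice. Members were clustered with scanpy 1.11.5 (2000 variable genes, 20 components, 15 neighbours, Leiden resolution 0.5). Shares of cells with a UMI were also computed at 500 UMIs. Counting intervals cover counting error only.

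Named genes were the 15 highest and 10 lowest ratios to the other labels, the 10 leading genes of each subcluster, and the 10 largest called rises and falls of a comparison, or up to 5 of smallest p. Alternatives left out each mouse, shared barcodes, doublets or low-count filters, or changed blocks, resolution or cells. Depth per mouse ran from 59477 to 843143 member UMIs, so small libraries limit low genes most. 1 item is not reported here.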

Additional observations from a re-analysis of the deposited data

Results flagged for a closer look

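In 36 groups of values tested, 5 held a mouse far from the others by Dixon's test. Chance does so in about 1 in 20 groups of normally distributed values. Where all other mice had 0, any value above 0 is flagged, so the 5 are not set against that rate. Subcluster 7 made up 62.9% of the members of B6→B6 replicate 4 and 0% in the other B6→B6 mice. Lmo1 stood at 178 CPM in the members of B6→B6 replicate 5, where the next mouse had 70.5. In the cDC2-like subcluster, Cxcl9 stood at 27.9 CPM in B6→B6 replicate 3 and Ly6c2 at 39.7 CPM in B6→B6 replicate 2, with 0 in the other B6→B6 mice tested. There mt-Cytb stood at 384 CPM in B6→B6 replicate 2, where the next mouse had 27.9.

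The difference between HLA→B6 and B6→B6 grafts was not the same in the members as in alveolar macrophages for 14 genes, by the interaction term in edgeR. The members' log2 difference exceeded that of alveolar macrophages by 6.20 for Serpinb1a, 3.88 for Slpi, 3.37 for Cdc42ep3, 3.25 for Atxn1, 3.06 for Cd200, 2.74 for Cytip and 1.27 for Actb. It lay on the other side for Lat2 (-3.61), Plbd1 (-3.50), Sema4d (-3.48), Slamf7 (-3.45), Emb (-2.82), Lyz2 (-2.61) and Plekho1 (-2.43). Causes were not tested.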

How the results depend on the processing

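The cause was not tested for any change given here. None of the genes traced over the alternatives changed sign, but Tap1, Psmb8, Psme2 and the genes named for the DC-like cells alone were not traced. Of the 25 genes called in subcluster 0, 18 could be tested over all members with equal cells per mouse, and 17 kept their direction. The difference in the members' share changed sign, at 0.755 without shared barcodes, 0.206 within linked and unlinked libraries, 0.173 without subcluster 7 and -1.20 to 0.143 with each mouse left out. Subcluster shares changed sign with a mouse left out for subcluster 1 (-4.92 to 12.8, and -0.0224 as a percent of all cells), subcluster 3 (-2.32 to 2.02, and 0.284 when clustered without cell cycle genes), subcluster 5 (-6.62 to 2.23) and subcluster 7 (-14.7 to 1.04).

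Calls over all members went from 0 to 25 with DESeq2, 153 without a low-count filter, 15 with linked libraries as a block, 41 without cells holding T cell receptor UMIs, 4 with equal cells per mouse and 0 to 27 with each mouse left out. By choices made after the data were seen they were 16 without subcluster 7, 35 in the DC-like subclusters and 3 in subclusters 0 and 5. In the DC-like subclusters without shared barcodes they were 18, from 4 B6→B6 and 3 HLA→B6 mice. Calls in subcluster 0 (25) were 99 without the filter, 6 to 55 with a mouse left out, 14 without shared barcodes and 8 from 5 cells per mouse. In subcluster 1 (0) they were 13 with DESeq2, 19 without the filter and 0 to 1 with a mouse left out, and in subcluster 5 (1) they were 3, 29 and 0 to 18. Against monocytes (0) the interaction gave 1, 21 and 0 to 2, and 10 in the DC-like cells. Against alveolar macrophages (14) it gave 71, 239 and 5 to 88, 159 without subcluster 7 and 139 in the DC-like cells. A group left with 1 mouse is assumed to vary like the other.

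With the replicate block 31 genes were called over all members. The numbers are not known to pair mice, and same-numbered mice had correlations of deviations of -0.0258, 0.0831 and -0.0926.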
